A study of Rattus norvegicus with 30 samples.

Results

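The complement system was examined in rat plantaris tendon through 9 genes chosen by name, C1qa, C1qb, C1qc, C1r, C1s, C2, C3, Cfb and C3ar1, of which 8 are named in the count table of 13124 genes and all 8 passed the filter on low counts. Cfb was not analysed here. RNA sequencing had been done on 1 plantaris tendon from each of 30 male Sprague Dawley rats, which were 3 months old when the study began according to its methods. The Control group held 3 tendons of rats that had neither surgery nor test compound, and all other rats had a full tenotomy of the plantaris tendon with immediate suture repair in both hind limbs. Repaired rats received GSK2894631A, an inhibitor of hematopoietic prostaglandin D synthase (HPGDS), by oral gavage 2 times daily at 0, 2 or 6 mg/kg. Tendons were taken after 7 days (7D 0 mg/kg, n = 5; 7D 2 mg/kg, n = 4; 7D 6 mg/kg, n = 3) or 21 days (n = 5 at each dose). The sources used here do not say whether Control rats received vehicle, so surgery and gavage cannot be told apart in any comparison with them.

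Complement is a cascade of plasma and tissue proteins that tags cells and debris and calls in immune cells. In the classical pathway, C1q (built from the products of C1qa, C1qb and C1qc) binds its target, and the attached proteases C1r and C1s then cleave C4 and C2 to form an enzyme that splits C3. Fragments of C3 coat the target, while the released C3a peptide acts on the receptor encoded by C3ar1. In many tissues macrophages are a main source of C1q, fibroblasts make C1r, C1s and C3, and much of the circulating complement comes from the liver.

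The 3 C1q genes lie side by side on chromosome 5, C1r and C1s are neighbours on chromosome 4, C2 is next to Cfb on chromosome 20, C3 is on chromosome 9 and C3ar1 on chromosome 4. Chromosomes are those of the rn6 annotation in the deposited files, and the order of neighbours is that of RefSeq on GRCr8. In the deposited annotation the identifiers are ENSRNOG00000012807 (C1qa), ENSRNOG00000012749 (C1qb), ENSRNOG00000012804 (C1qc), ENSRNOG00000011796 (C1r), ENSRNOG00000011971 (C1s), ENSRNOG00000051235 (C2), ENSRNOG00000046834 (C3) and ENSRNOG00000009211 (C3ar1), and the genes span 2894 (C1qa) to 26063 bases (C3). Promoter sequence was found in RefSeq (GRCr8) for 5 members, and the 250 bases before the start are shown for 4 of them, the C1q pair because their levels moved together, and C1r and C3 because they rose after repair without following C1q closely. Capitals mark matches, on either strand, to 6 short motifs: GAGGAA (the core bound by PU.1 and other ETS factors), TTCNNNGAA (STAT), TTGCNNAA (C/EBP), GGGANTTCC (NF-kappaB), GAAANNGAA (interferon-stimulated response element) and TATAAA (the core of a TATA box). The windows are C1qa chr5:154419934-154420183 (minus strand), C1qb chr5:154407828-154408077 (minus strand), C1r chr4:159098763-159099012 (plus strand) and C3 chr9:2201340-2201589 (minus strand).
C1qa: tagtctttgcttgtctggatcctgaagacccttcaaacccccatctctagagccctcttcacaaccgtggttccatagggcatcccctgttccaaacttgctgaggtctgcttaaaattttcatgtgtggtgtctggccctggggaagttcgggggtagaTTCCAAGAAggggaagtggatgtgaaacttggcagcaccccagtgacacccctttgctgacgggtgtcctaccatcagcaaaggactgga
C1qb: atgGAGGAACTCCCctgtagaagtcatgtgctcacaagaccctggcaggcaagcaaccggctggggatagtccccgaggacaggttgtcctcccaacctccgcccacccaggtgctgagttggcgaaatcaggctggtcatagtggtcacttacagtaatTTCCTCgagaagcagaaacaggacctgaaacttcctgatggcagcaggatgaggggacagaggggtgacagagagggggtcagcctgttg
C1r: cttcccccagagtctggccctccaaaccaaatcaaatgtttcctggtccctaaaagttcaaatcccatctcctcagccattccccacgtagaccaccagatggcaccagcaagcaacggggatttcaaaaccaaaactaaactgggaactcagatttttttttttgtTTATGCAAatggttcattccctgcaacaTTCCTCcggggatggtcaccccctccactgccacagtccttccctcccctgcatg
C3: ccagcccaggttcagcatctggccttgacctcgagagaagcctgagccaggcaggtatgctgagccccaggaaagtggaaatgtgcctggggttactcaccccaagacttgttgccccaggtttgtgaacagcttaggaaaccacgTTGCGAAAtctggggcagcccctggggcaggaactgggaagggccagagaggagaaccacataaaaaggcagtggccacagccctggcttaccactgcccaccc
The C1qa window holds 1 STAT motif, starting 90 bases before the start. The C1qb window holds 2 PU.1 core motifs, at 247 and 90 bases, and an NF-kappaB motif at 245 bases whose letters overlap the first of these. C1r has a C/EBP motif at 83 bases and a PU.1 core motif at 55 bases, and C3 has a C/EBP motif at 104 bases. The C3ar1 window, not printed, holds none of the 6. Among 33360 distinct promoter windows of the same length, 23.3% hold the PU.1 core, 7.68% the STAT motif, 9.2% the C/EBP motif, 1.42% the NF-kappaB motif, 8.12% the interferon motif and 12.9% the TATA motif. A match describes letters in the window and does not show that a factor binds there.

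Total counts were 12405741 to 49909374 per tendon, and 3 counts corresponded to 0.0562 to 0.245 CPM. Levels are given as CPM, the counts of a gene scaled to a library of 1000000 by the trimmed mean of M-values (TMM), and compare tendons for 1 gene, not genes with each other. The tissue label was checked on 9 tendon fibroblast markers, 8 of them found, which summed to 10897 to 41829.5 CPM in control and 25441 to 56447 CPM in repaired tendons. The markers did not move as 1. At 7D 0 mg/kg 1 of the 8 was called higher than control and 3 lower, beside 35.8% and 35.6% of all genes. Their median log2 fold change was -0.15 and the lowest -4.10. Skeletal muscle genes took 19.6 to 27.7% of the counts in control tendons against 0.00935 to 1.31% at 7 days and 0.0673 to 9.77% at 21 days. These ranges do not overlap between control and repaired tendons. Fits with the muscle share as a covariate therefore cannot tell repair from muscle share in any comparison with control below. Control replicate 4 stood apart before any comparison: its 10 macrophage markers summed to 279.9 CPM against 1009 and 1380 CPM in the other control tendons, its 7 fibroblast markers to 3975 CPM against 12542 and 13704 CPM, and it was the lowest of all tendons for each of the 8 members. Results of the 8 members against control are therefore given with it and, where a call changes, without it. In whole tendon, fewer cells of a type and less RNA per cell cannot be told apart.

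**Figure D1:**
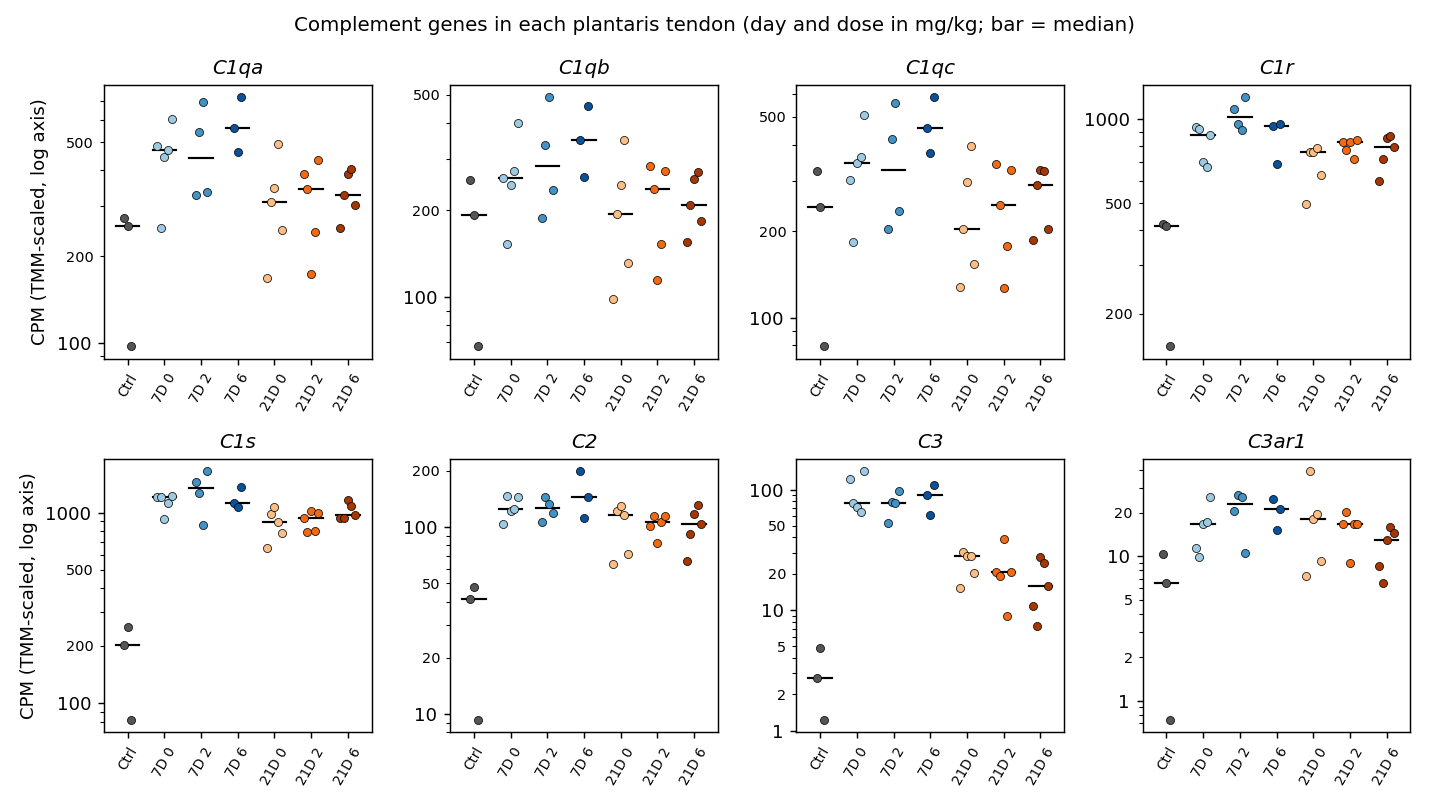
CPM (TMM-scaled, log axis) of the 8 complement genes in each of 30 tendons, 1 point per tendon, grouped by day and dose with the group median as a bar. C1r, C1s, C2 and C3 sit above every control tendon in all repaired groups, C3 is lower at 21 than at 7 days, and the C1q genes overlap the control values in most groups.

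Between 4 and 8 of the 8 members were called higher in each repaired group than in control tendons. In 7D 0 mg/kg tendons 6 of 8 members passed the test as higher than control, where 35.8% of all 12558 genes did. In the dosed 7-day groups 6 (2 mg/kg, 35.8% of all genes) and 8 (6 mg/kg, 34.1%) passed. At 21 days 5 (0 mg/kg, 32.2%), 5 (2 mg/kg, 33.8%) and 4 (6 mg/kg, 30.8%) did. None was called lower by edgeR or by DESeq2 in any of these comparisons, and none had a fitted change below 0 at an unadjusted p under 0.05. The median log2 fold change of the members was 1.38 at 7D 0 mg/kg and 1.34 at 21D 0 mg/kg, beside 0.05 and 0.03 over all genes tested. Without Control replicate 4 the members called numbered 4, 5 and 5 in the 7-day groups (0, 2 and 6 mg/kg) and 4 in each 21-day group. The 4 genes called in every one of these fits were C1r, C1s, C2 and C3. Of all genes called in these comparisons, 48.0 to 51.3% were higher under TMM and 74.1 to 77.9% when counts were scaled by library size only, which raised the median of all genes by 0.51 to 0.64. Members called were then 8 in each 7-day group and 6 in each 21-day group. The shares of all genes called higher by library size only and without Control replicate 4 are not given. No weight is therefore put on the counts of members in those fits.

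**Figure D2:**
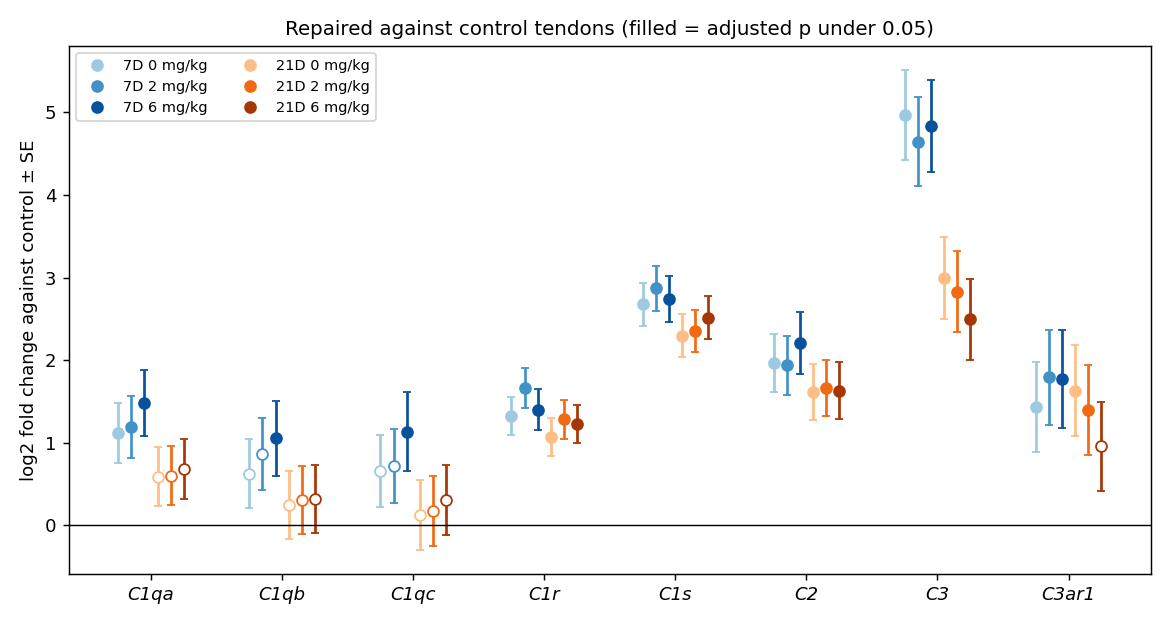
Log2 fold change against control tendons with its standard error for 8 complement genes in 6 repaired groups, filled where edgeR's adjusted p is under 0.05. C3 is at 4.65 to 4.97 at 7 days and 2.49 to 2.99 at 21 days, C1s at 2.29 to 2.87, and C1qb and C1qc pass only in the 7D 6 mg/kg group.

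C3, the protein on which all activation routes converge, had the largest log2 fold change of the 8 genes in 5 of 6 comparisons with control, C1s being above it at 21D 6 mg/kg (2.52 against 2.49). It was at 2.74, 4.85 and 1.23 CPM in the control tendons. At 7D 0 mg/kg it was at 121.7, 76.9, 71.5, 65.5 and 142 CPM, at 7D 2 mg/kg at 52.7, 78.1, 77.7 and 96.9 CPM, and at 7D 6 mg/kg at 90.3, 61.7 and 108 CPM. At 21D 0 mg/kg the tendons held 15.1, 30.1, 27.9, 27.9 and 20.3 CPM, at 21D 2 mg/kg 20.5, 19.1, 39.1, 8.87 and 20.9 CPM, and at 21D 6 mg/kg 10.8, 7.33, 27.3, 24.5 and 15.8 CPM. The lowest repaired tendon was thus above the highest control tendon, and every 7-day tendon was above every 21-day tendon. Against control the log2 fold change was 4.97 (SE 0.54, 31.4-fold, edgeR adjusted p = 1.95e-08) in the 7D 0 mg/kg group. In the dosed 7-day groups it was 4.65 (2 mg/kg, SE 0.54, adjusted p = 6.67e-08) and 4.83 (6 mg/kg, SE 0.56, adjusted p = 7.66e-08). At 21 days it was 2.99 (SE 0.50, 7.95-fold, adjusted p = 1.26e-05), 2.83 (SE 0.49, adjusted p = 1.91e-05) and 2.49 (SE 0.49, adjusted p = 9.59e-05) at 0, 2 and 6 mg/kg. All 6 calls held when any single tendon was left out and under every other setting tried. These settings included the share of muscle counts as a covariate, a fit that cannot tell repair from that share. The 7 fibroblast markers also summed higher in repaired tendons, at 36585 to 70773 CPM against 3975 to 13704 CPM in control. Between 7 and 21 days their median log2 difference was -0.38, -0.36 and -0.24 at 0, 2 and 6 mg/kg, smaller than that of C3. Over the 27 repaired tendons Pearson's r between log2 C3 and the log2 marker sum was 0.57. C3 made up 0.0218 to 0.0354% of that sum in control tendons, 0.0872 to 0.238% at 7 days and 0.0157 to 0.0648% at 21 days, and the part of these cells in the result was not tested.

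C1s encodes the protease of the C1 complex that cleaves C4 and C2. Its level was 202.4, 249.9 and 81.9 CPM in control tendons, 1212, 1208, 929, 1116 and 1219 CPM at 7D 0 mg/kg, and 649, 981, 1070, 891 and 779.7 CPM at 21D 0 mg/kg. It was 856 to 1649 CPM in the other 7-day tendons and 791 to 1162 CPM in the other 21-day tendons, so all repaired tendons were above all controls. The log2 fold change was 2.67 (SE 0.26, 6.38-fold, edgeR adjusted p = 4.49e-09) at 7D 0 mg/kg and 2.29 (SE 0.26, 4.91-fold, adjusted p = 7.69e-08) at 21D 0 mg/kg, and 2.35 to 2.87 in the dosed groups. C1r, which encodes the protease that activates C1s, rose too, with smaller log2 fold changes. Control tendons held 419, 412 and 153 CPM of C1r, 7D 0 mg/kg tendons 939.8, 921, 704.5, 673 and 875 CPM and 21D 0 mg/kg tendons 497, 765, 765, 786 and 628 CPM. The dosed tendons ranged over 693 to 1197 CPM at 7 days and 599.5 to 868 CPM at 21 days, again above all controls. Its log2 fold change was 1.33 (SE 0.23, 2.51-fold, adjusted p = 1.86e-05) at 7D 0 mg/kg and 1.07 (SE 0.23, 2.10-fold, adjusted p = 2.72e-04) at 21D 0 mg/kg, and 1.22 to 1.66 in the dosed groups. Summed, C1r and C1s equalled 4.83 to 5.92% of the fibroblast marker sum in control tendons. That share was 2.44 to 5.10% at 7 days and 2.81 to 3.85% at 21 days, so the pair did not rise on this scale. Over the 27 repaired tendons Pearson's r between both log2 sums was 0.58. The part of fibroblasts in the rise of C1r and C1s was not tested.

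Within single tendons the balance of both proteases differed between control and repaired tissue. The ratio of C1s to C1r counts was 0.483 to 0.606 in control tendons, with Control replicate 4 inside that range at 0.534. It was 1.29 to 1.66 at 7D 0 mg/kg, 0.935 to 1.38 at 7D 2 mg/kg, 1.19 to 1.55 at 7D 6 mg/kg, and 1.02 to 1.57 over the 15 tendons at 21 days. Control and repaired tendons did not overlap in this ratio, which is given without a test because it was chosen after the levels were known. RefSeq lists a pseudogene of C1s, and whether it took reads of C1s was not tested.

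**Figure D3:**
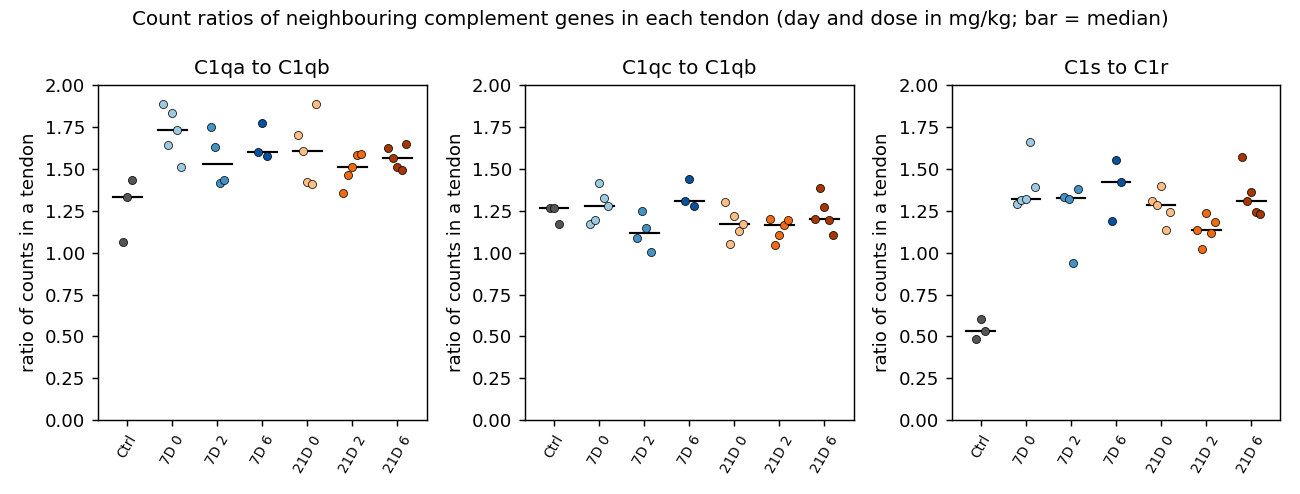
Ratio of counts within each tendon for C1qa to C1qb, C1qc to C1qb and C1s to C1r, by day and dose, with the median as a bar. The C1s to C1r ratio is at most 0.606 in control and at least 0.935 in repaired tendons, while C1qc to C1qb stays between 1.01 and 1.44 in all 30 tendons.

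C2 supplies the protease part of the classical C3 convertase. It was at 41.2, 47.9 and 9.31 CPM in control tendons and at 103, 147, 122, 125 and 146 CPM at 7D 0 mg/kg. The 21D 0 mg/kg tendons held 63.5, 122, 129.6, 117 and 72.2 CPM. Dosed tendons were at 107 to 199.5 CPM at 7 days and 65.9 to 131 CPM at 21 days, so every repaired tendon was above every control tendon. The log2 fold change was 1.96 (SE 0.35, 3.90-fold, edgeR adjusted p = 2.09e-05) at 7D 0 mg/kg and 1.61 (SE 0.34, 3.06-fold, adjusted p = 2.31e-04) at 21D 0 mg/kg, with 1.94 and 2.21 in the dosed 7-day groups and 1.66 and 1.63 in the dosed 21-day groups. With the muscle share as a covariate C1r and C2 no longer passed in dosed 7-day tendons, while C1s and C3 did. C1r was then at 1.18 and 0.92 (adjusted p = 0.113 and 0.205) and C2 at 1.12 and 1.41 (adjusted p = 0.299 and 0.182) for 2 and 6 mg/kg. Because Cfb is next to C2 in the genome, reads that ran from either gene into the other could be counted for C2, and this was not tested. With C1r, C1s and C3, it made 4 members whose 7D 0 mg/kg and 21D 0 mg/kg tendons were all above the controls, a pattern seen in 31.2% and 25.0% of all genes tested.

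C1qa, C1qb and C1qc, the chains of the recognition protein, were detected in every uninjured tendon. C1qa was at 272, 256 and 97.2 CPM in control tendons, 485, 251, 446, 471 and 602 CPM at 7D 0 mg/kg, 328, 544, 693 and 335 CPM at 7D 2 mg/kg, and 559.6, 462 and 718 CPM at 7D 6 mg/kg. The 21-day tendons were at 168 to 492 CPM (0 mg/kg), 173 to 434 CPM (2 mg/kg) and 252 to 402 CPM (6 mg/kg). The 7-day tendons were above control apart from 1 tendon at 0 mg/kg, and the 21-day groups overlapped control. C1qa passed the test at 7 days, with log2 fold changes of 1.11 (SE 0.37, edgeR adjusted p = 0.00869), 1.19 (SE 0.38, adjusted p = 0.00737) and 1.48 (SE 0.40, adjusted p = 0.00218) at 0, 2 and 6 mg/kg, and not at 21 days, where they were 0.59, 0.60 and 0.68 (adjusted p = 0.151, 0.137 and 0.0981). With the muscle share as a covariate the 7-day calls of C1qa were lost, at 0.87, 0.71 and 1.0 (adjusted p = 0.158, 0.594 and 0.425).

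C1qb was at 255, 192 and 67.9 CPM and C1qc at 323, 243 and 79.6 CPM in control tendons. At 7D 0 mg/kg they ranged over 153 to 399 CPM and 183 to 509 CPM, and at 21D 0 mg/kg over 98.4 to 349.7 CPM and 128 to 395 CPM, overlapping the controls in both cases. The 7D 6 mg/kg tendons held 350.1, 261 and 456 CPM of C1qb and 458, 375 and 584 CPM of C1qc, above every control tendon. Their log2 fold changes at 7D 0 mg/kg were 0.63 (SE 0.42, adjusted p = 0.180) and 0.66 (SE 0.43, adjusted p = 0.174). Only at 7D 6 mg/kg did both pass the edgeR test, at 1.05 (SE 0.46, adjusted p = 0.0455) and 1.13 (SE 0.48, adjusted p = 0.0379). Both calls were lost when any 1 of 4 tendons was left out, namely Control replicates 3 and 4 (adjusted p of C1qb 0.0614 and 0.238) and 7D 6 mg/kg replicates 1 and 5 (0.0729 and 0.154). Without Control replicate 4 alone, C1qa fell below the threshold at 7D 0 mg/kg (log2 fold change 0.72, adjusted p = 0.0965) and 7D 2 mg/kg (0.80, adjusted p = 0.0756) and stayed past it at 7D 6 mg/kg (1.10, adjusted p = 0.0228), and C1qb and C1qc at 21D 0 mg/kg were at -0.19 and -0.32 (adjusted p = 0.717 and 0.536).

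The C1q genes were set beside markers of macrophages. The 10 markers, all found, summed to 279.9 to 1380 CPM in control, 2118 to 5357 CPM at 7 days and 1385 to 7873 CPM at 21 days. At 7D 0 mg/kg 9 of 10 passed the test as higher, beside 35.8% of all genes. Their median log2 fold change was 2.16, with single markers at 0.81 to 3.27. The summed C1q genes equalled 61.6 to 87.4% of that marker sum in control tendons, 16.8 to 45.1% at 7 days and 8.97 to 44.7% at 21 days, so no repaired tendon reached the control range. Control replicate 4, low in both, was at 87.4%. Over the 27 repaired tendons Pearson's r between the log2 sums was 0.48, as a description of tendons that share their library depth. What share of the C1q signal came from which cells was not tested.

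**Figure D4:**
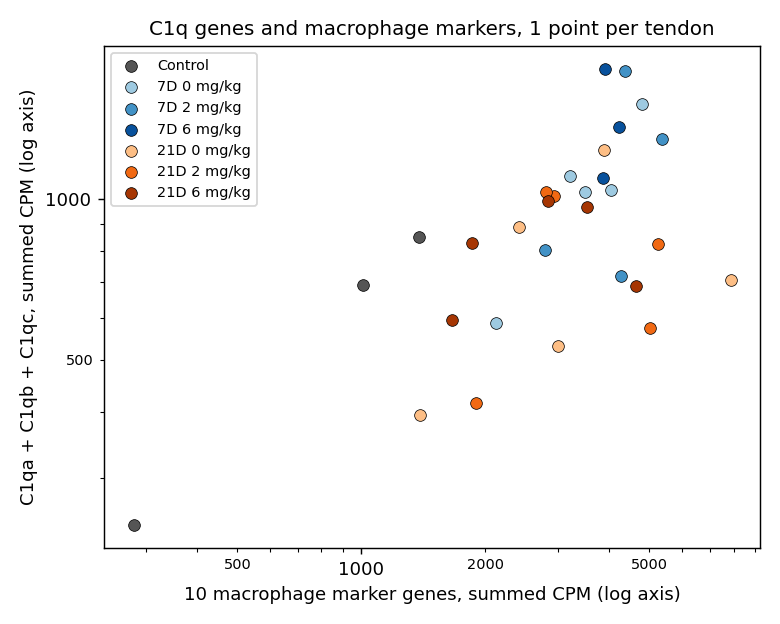
Summed CPM of C1qa, C1qb and C1qc against the summed CPM of 10 macrophage marker genes, both on log axes, with 1 point per tendon coloured by group. Control tendons lie to the left, at 279.9 to 1380 CPM of marker genes, and repaired tendons extend to 7873 CPM of markers with C1q sums that partly overlap the controls.

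C3ar1, the receptor for the C3a peptide, had 9 to 221 counts per control tendon. It was at 10.4, 6.58 and 0.735 CPM in control tendons. At 7D 0 mg/kg it was at 11.4, 9.90, 16.8, 17.4 and 25.8 CPM, and at 21D 0 mg/kg at 7.26, 39.0, 18.3, 19.5 and 9.28 CPM, so both groups overlapped the highest control tendon. The dosed 7-day tendons were at 10.5 to 26.6 CPM and the dosed 21-day tendons at 6.58 to 20.2 CPM. It passed the edgeR test in 5 of 6 groups, with log2 fold changes of 1.43 (SE 0.55, adjusted p = 0.0224) at 7D 0 mg/kg, 1.63 (SE 0.55, adjusted p = 0.0119) at 21D 0 mg/kg and 1.39 to 1.79 in the other 3, but not at 21D 6 mg/kg (0.96, SE 0.54, adjusted p = 0.120). Without Control replicate 4 it passed only at 7D 2 mg/kg (1.25, adjusted p = 0.0427), with 0.88 (adjusted p = 0.130) at 7D 0 mg/kg and 1.08 (adjusted p = 0.0734) at 21D 0 mg/kg. The call at 7D 0 mg/kg was also lost without replicate 5 of that group (adjusted p of C3ar1 0.0572), and the call at 21D 0 mg/kg without replicate 2 (0.0502). All 5 calls of C3ar1 were lost in fits of only the groups compared (log2 fold changes 1.42 to 1.78, adjusted p = 0.0600 to 0.115) and with the muscle share as a covariate (0.13 at 7D 0 mg/kg, adjusted p = 0.873). As a share of the macrophage marker sum C3ar1 was at 0.263 to 0.756% in control and 0.283 to 0.759% in repaired tendons. On this scale C3ar1 overlapped between control and repaired tendons, while the C1q sum did not. Over the 27 repaired tendons Pearson's r between log2 C3ar1 and the log2 marker sum was 0.84. The marker sum weighs abundant markers most. Single macrophage markers ranged from -0.65 to 3.17 in log2 fold change at 21D 0 mg/kg, so the scale does not stand for each of them.

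Between 7 and 21 days 1 of 8 members, C3, was called lower at each dose, where 2.47%, 5.98% and 4.55% of all genes were called lower (0, 2 and 6 mg/kg). C3 fell by 1.98 (SE 0.37, adjusted p = 0.00422), 1.82 (SE 0.38, adjusted p = 0.00252) and 2.34 (SE 0.41, adjusted p = 6.62e-04) on the log2 scale at 0, 2 and 6 mg/kg. The 95% interval at 0 mg/kg was -2.74 to -1.22. With the muscle share as a covariate the log2 difference of C3 was -1.71 in rats given vehicle (adjusted p = 0.0163), and it no longer passed in rats given 2 mg/kg (-0.73, adjusted p = 0.462) or 6 mg/kg (-1.28, adjusted p = 0.342). In dosed rats that share was 0.00935 to 0.0129% at 7 days and 0.342 to 9.77% at 21 days. Since these ranges do not overlap, the fit cannot tell time from muscle share there. None of the 8 was called higher, beside 2.88%, 7.09% and 8.54% of all genes. Of all genes called over time 53.9%, 54.2% and 65.2% were higher at 21 days under TMM, and 42.7%, 46.9% and 50.9% with library size only. The other 7 members had log2 differences of -0.53 to 0.20, -0.59 to -0.27 and -0.83 to -0.18 in the same order of dose, and their 95% intervals reached from -1.84 to 1.10. None of these 7 was called. The 21-day tendons were all below the 7-day tendons for C1r at 2 mg/kg (-0.38, adjusted p = 0.221) and for C1qa (-0.80, adjusted p = 0.132) and C1qc (-0.83, adjusted p = 0.197) at 6 mg/kg. The share of all genes apart in this way between the times was not counted, so no weight is put on it. In fits of only the groups compared, C1r at 2 mg/kg (-0.39, adjusted p = 0.0329) and C1qa at 6 mg/kg (-0.78, adjusted p = 0.0410) were called lower as well. Whether C3 differed from the other members in its change over time was not tested. Of 8 neutrophil markers 5 were found, and they summed to 57.4 to 108 CPM at 7D 0 mg/kg and 8.33 to 26.5 CPM at 21D 0 mg/kg. Their part in the decline of C3 was not tested.

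No member was called between doses of GSK2894631A. In the F-test over 3 doses 0 of 8 passed at 7 days, where 2.05% of all genes did, and 0 of 8 at 21 days, where 0% did, and 0 of 8 in the test of whether the dose effect differed between the time points (0.390% of all genes). In the 6 pairwise comparisons 0 of 8 passed, beside 2.36% of all genes for 2 against 0 mg/kg and 0.390% for 6 against 0 mg/kg at 7 days, 0% for 6 against 2 mg/kg at 7 days, and 0% for each pair at 21 days. Muscle counts at 7 days were 0.176 to 1.31% at 0 mg/kg, 0.00935 to 0.0115% at 2 mg/kg and 0.0101 to 0.0129% at 6 mg/kg. Of 25 skeletal muscle genes, 20 (2 against 0 mg/kg) and 15 (6 against 0 mg/kg) were called lower at 7 days. The part of muscle content in the shares of all genes was not tested. No member reached an unadjusted p under 0.05 in any of these edgeR tests, and DESeq2 also called 0 of 8 in each. C3 at 6 against 0 mg/kg differed by -0.14 on the log2 scale at 7 days (95% interval -0.99 to 0.71) and by -0.50 at 21 days (-1.24 to 0.24). C3ar1 differed by 0.34 (-0.70 to 1.38) and -0.67 (-1.58 to 0.24). These intervals do not show that doses acted alike, since they hold log2 differences as large as -1.58 and 1.38 for C3ar1 and -1.24 for C3.

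Some members rose and fell together across tendons more closely than others, without falling into separate sets. Over 27 repaired tendons Pearson's r of log2 CPM was 0.97 to 0.98 for the 3 pairs of C1q genes and also 0.97 to 0.98 after the group means were removed. The C1qc to C1qb ratio ranged over 1.01 to 1.44 in all 30 tendons. C1r and C1s had r = 0.80 (0.75 within groups). C1s followed the C1q genes less, with r of 0.34 to 0.40 and 0.0028 to 0.086 within groups, and C3ar1 was closest to C2 (0.70) and to C1qb (0.65). With the C1q genes C1r had r of 0.39 to 0.51 and C2 had 0.71 to 0.73 (0.57 to 0.64 within groups). C3 had r of 0.52 to 0.66 with the C1q genes, C1r, C1s and C2. These are descriptions, since all points share the scaling of their library.

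The genes most like the C1q genes, C1r with C1s, C3, C2 and C3ar1 over the same 27 tendons were found by Pearson's r of log2 CPM. For the C1q genes they were Mrc1 (the mannose receptor of macrophages, r = 0.93), Slc9a9 (0.93), P2ry13 (0.92), Naaa (0.91) and Erbb3 (0.91). For C1r and C1s they were Pdgfra (a receptor carried by many fibroblasts, 0.90), Steap2 (0.84), Steap1 (0.84), Dnajc3 (0.84) and Pros1 (0.84). C3 was closest to Sfrp1 and Sfrp2, secreted Wnt antagonists (0.92 and 0.90), and to Pcsk5 (0.91), Svep1 (0.91) and Slc1a3 (0.90). C2 was closest to the lysosomal enzyme genes Man2b1 (0.89) and Glb1 (0.83) and to Scamp2 (0.85). C3ar1 was closest to Csf1r, the receptor for macrophage colony-stimulating factor (0.92), the scavenger receptor gene Msr1 (0.90) and Dock8 (0.90). Mrc1 and Csf1r are also among the macrophage markers above.

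The rest of the pathway was covered by 44 further complement genes, 32 of them in the count table and 31 tested. Of the 31, 18 were higher and 5 lower at 7D 0 mg/kg (all genes: 35.8% higher, 35.6% lower). The dosed 7-day groups had 21 higher with 6 lower (2 mg/kg, 34.0% of all genes lower) and 20 with 5 (6 mg/kg, 33.8%). The 21-day groups had 13 higher with 6 lower (0 mg/kg, 33.7% of all genes lower), 15 with 8 (2 mg/kg, 35.3%) and 13 with 7 (6 mg/kg, 33.3%). Csmd1 was not tested. Their median log2 fold change was 1.28 at 7D 0 mg/kg and 1.01 at 21D 0 mg/kg. Without Control replicate 4, 20, 25 and 23 of the 31 were called in either direction in the 7-day groups (0, 2 and 6 mg/kg). In the 21-day groups 16, 17 and 13 were. The shares of all genes in these fits are not given, so no weight is put on the counts. Single further genes are given below only from fits with Control replicate 4.

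**Figure D5:**
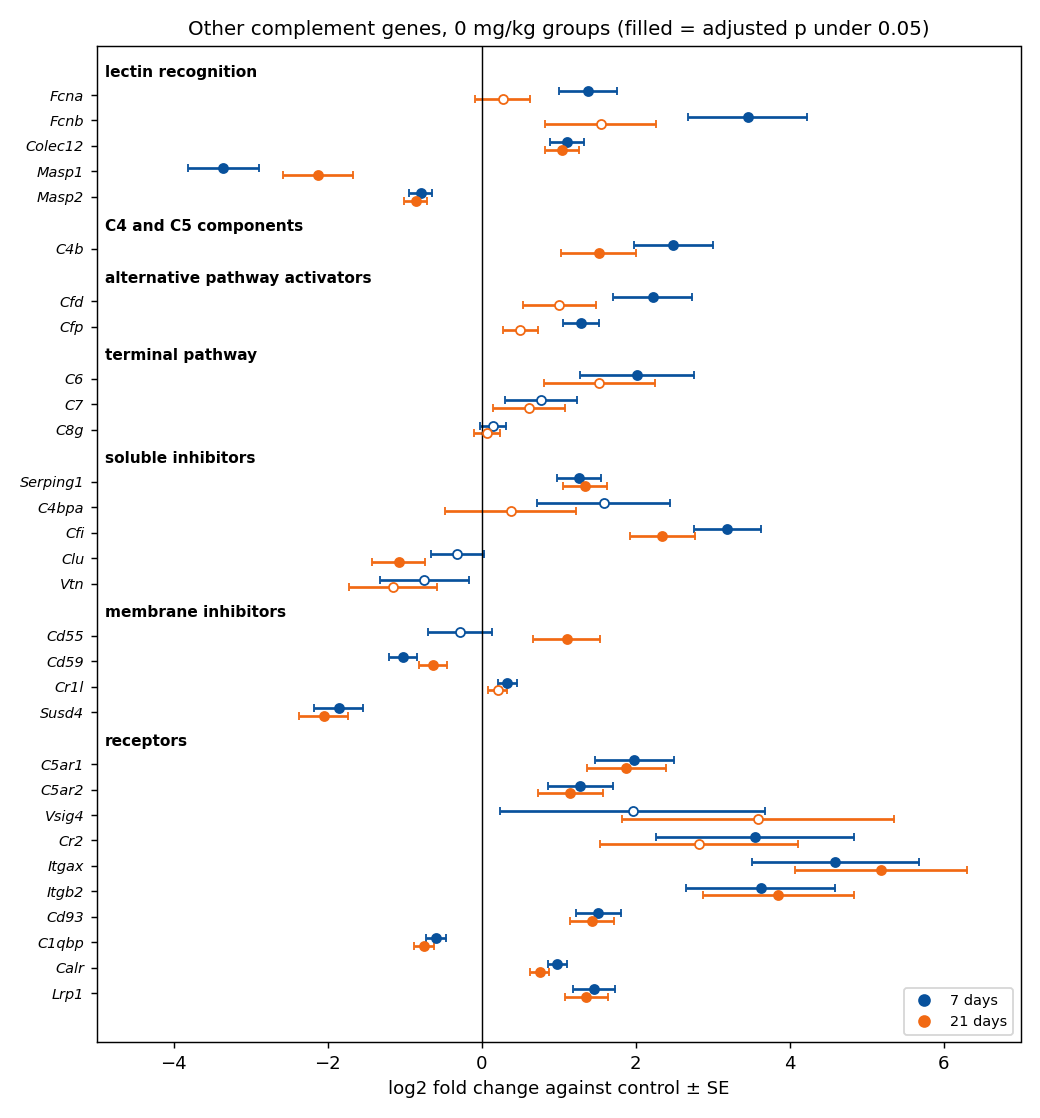
Log2 fold change against control with its standard error for 30 of the further complement genes in the 7D 0 mg/kg (blue) and 21D 0 mg/kg (orange) groups, ordered by role and filled where edgeR's adjusted p is under 0.05. Most receptors lie to the right, the lectin pathway proteases Masp1 and Masp2 and the inhibitors Cd59 and Susd4 lie to the left, and Cfd and Cfp are filled at 7 days only.

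The counts by role that follow are for few genes each and stand beside 35.8% of all genes higher and 35.6% lower at 7D 0 mg/kg. Lectin pathway genes went both ways. At 7D 0 mg/kg 3 of 5 rose, namely Colec12, a scavenger collectin (1.11, SE 0.22, adjusted p = 7.86e-05), and the ficolin genes Fcna (1.38, SE 0.37, adjusted p = 0.00197) and Fcnb (3.45, SE 0.78, adjusted p = 3.47e-04). The genes of the associated proteases fell: Masp1 was at 117 ± 55.3 CPM (SD, n = 3) in control and 11.4 ± 3.77 CPM (n = 5) at 7D 0 mg/kg (log2 fold change -3.36, SE 0.46, adjusted p = 6.64e-07), and Masp2 was at 8.22 ± 1.16 and 4.74 ± 0.233 CPM (-0.79, SE 0.15, adjusted p = 4.36e-05). Both were also lower at 21D 0 mg/kg, at -2.13 and -0.85. Scaled by library size only, Masp1 stayed lower at 7D 0 mg/kg (-2.70, adjusted p = 4.67e-06), and Masp2 was no longer called (-0.18, adjusted p = 0.252). C4b, a C4 gene and the only 1 of 3 listed C4 and C5 genes in the table, rose from 176 ± 156 CPM to 989 ± 316 CPM at 7D 0 mg/kg (2.49, SE 0.51, adjusted p = 1.31e-04). C4b has a near-identical copy in the genome, so its reads may be shared.

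The alternative pathway was represented by Cfd (factor D, also made by fat cells) and Cfp (properdin). Both rose at 7D 0 mg/kg, Cfd from 163 ± 97.7 to 761 ± 197 CPM (2.22, SE 0.51, adjusted p = 4.07e-04) and Cfp from 17.0 ± 3.20 to 41.7 ± 7.63 CPM (1.29, SE 0.24, adjusted p = 3.39e-05), and neither passed at 21D 0 mg/kg. The 6 adipocyte markers summed to 404 to 1085 CPM in control, 615 to 1873 CPM at 7D 0 mg/kg and 778 to 1857 CPM at 21D 0 mg/kg, and their part in the Cfd result was not tested. Of the terminal genes C6 rose at 7D 0 mg/kg (2.02, SE 0.74, adjusted p = 0.0171), and the other 2 were not called. Among 6 soluble inhibitors 2 rose at 7D 0 mg/kg, a share near the 35.8% of all genes: Cfi, the protease that inactivates C3b and C4b, from 1.71 ± 0.973 to 15.1 ± 3.53 CPM (3.19, SE 0.44, adjusted p = 5.81e-07), and Serping1, the C1 inhibitor, from 308 ± 131 to 739.6 ± 149 CPM (1.26, SE 0.29, adjusted p = 3.81e-04). Clu was lower at 21D 0 mg/kg (-1.08, SE 0.34, adjusted p = 0.00805), but not under library size only (-0.50, adjusted p = 0.183).

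Of 4 membrane inhibitors tested, which protect host cells, 2 fell and 1 rose at 7D 0 mg/kg, where 35.6% of all genes fell and 35.8% rose. Cd59, which blocks the membrane attack complex, was at 415 ± 61.1 CPM in control and 204 ± 41.9 CPM at 7D 0 mg/kg (-1.02, SE 0.18, adjusted p = 1.93e-05), and Susd4 at 23.8 ± 5.84 and 6.56 ± 1.95 CPM (-1.86, SE 0.32, adjusted p = 1.64e-05). Under library size only Cd59 was at -0.41 (adjusted p = 0.0445) and Susd4 at -1.28 (adjusted p = 0.00124). Cr1l rose slightly (0.33, SE 0.13, adjusted p = 0.0211), and Cd55 was higher at 21D 0 mg/kg (1.10, SE 0.43, adjusted p = 0.0274) but not at 7D 0 mg/kg. Skeletal muscle markers were far lower in repaired than control tendons, as given above, and their part in these decreases was not tested. Of 10 receptor genes 8 rose and 1 fell at 7D 0 mg/kg, beside the same shares of all genes. The integrin gene Itgax, a subunit of a C3 fragment receptor, went from 2.70 ± 2.31 to 67.5 ± 35.5 CPM (4.60, SE 1.09, adjusted p = 5.81e-04), Cd93 rose by 1.52 (SE 0.29, adjusted p = 4.85e-05), Lrp1 by 1.46 (SE 0.28, adjusted p = 5.11e-05) and Calr by 0.98 (SE 0.13, adjusted p = 1.99e-07) on the log2 scale, and C1qbp fell by 0.60 (SE 0.13, adjusted p = 3.39e-04), which turned to 0.04 (adjusted p = 0.709) under library size only. C5ar1, the C5a receptor gene, named after its values were seen as the counterpart of C3ar1, rose by 1.98 (SE 0.51, adjusted p = 0.00130).

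Between 7 and 21 days 1 of these 31 genes was higher with 3 lower in vehicle-treated rats, 1 with 7 lower at the dose of 2 mg/kg, and 2 with 7 lower at 6 mg/kg. Of all genes 2.88%, 7.09% and 8.54% were higher and 2.47%, 5.98% and 4.55% lower in these comparisons. Single tendons moved these counts, to 1 to 5 genes in vehicle-treated rats. Cfp, Fcna and Fcnb were lower at all 3 doses, with log2 differences of -0.79, -1.11 and -1.91 at 0 mg/kg (edgeR adjusted p = 0.0214, 0.0353 and 0.0492). Cfd passed as lower in the dosed groups (2 mg/kg -2.32, adjusted p = 8.98e-04; 6 mg/kg -1.91, adjusted p = 0.00644) and was at -1.21 with vehicle, not called. Of 6 adipocyte markers 5 and 4 were also called lower in the dosed groups (2 and 6 mg/kg), with medians of -3.81 and -2.71. Their sums were 1451 to 3543 CPM at 7D 2 mg/kg and 286 to 1428 CPM at 21D 2 mg/kg. At 6 mg/kg they were 1230 to 3277 CPM at 7 days and 486 to 893 CPM at 21 days. The part of fat cells in the Cfd change was not tested. Cd55 passed as higher with vehicle (1.38, adjusted p = 0.0281) and with 6 mg/kg (2.25, adjusted p = 0.00225). In each dosed pair 1 lectin pathway gene also passed as higher, and C4b passed as lower with 6 mg/kg (-1.52). Whether these genes differed between doses in their time course was tested by the interaction F-test, in which 0 of 31 passed (0.390% of all genes did) and 1 had an unadjusted p under 0.05.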

How the data were processed

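Plantaris tendon RNA from 30 rats was sequenced by the authors as single-end reads, trimmed with fastp, mapped to rn6 with STAR and counted in exons of Ensembl genes, and some samples were removed on quality. The methods describe 1 removal from the 7D 6 mg/kg group of 5, whereas the labels hold 3 tendons, and the labels were followed. The deposited values used are raw counts per gene, without normalization. From a deposited table of the authors' own edgeR comparisons (log2 fold changes, p-values and FDR, not used) only other values were taken, namely the chromosome and width of each gene. Samples were grouped by day and dose in the labels. Members and gene lists were chosen with earlier results of these data known.

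The work was done in edgeR 4.0.16 (R 4.3.3). A gene was kept if its mean CPM by library size alone, before TMM scaling, reached 3 in any group (566 genes removed, 12558 left). After TMM scaling, 1 quasi-likelihood model with a mean per group was fitted to all 30 tendons. Comparisons were contrasts or F-tests with Benjamini-Hochberg adjustment over all genes kept, called at an adjusted p under 0.05 with no fold threshold. Standard errors were obtained from each log2 fold change and its F statistic, and a prior count of 2 entered log2 CPM. The steps were tested on simulated data. Named further genes are at most 4 per role and direction, by smallest adjusted p at 7D 0 mg/kg, among those called there, at 21D 0 mg/kg or between the times, and 1 item that this rule names is not reported here. The alternatives were RLE, library size only, no filter, separate fits restricted to the compared groups, the replicate number as a block, DESeq2 1.42.0, muscle genes removed, the muscle share as a covariate, leaving out each tendon, and a prior count of 0.25. Replicate numbers did not pair the samples (median r of same-numbered tendons 0.026 over 76 pairs, -0.73 to 0.79), and the closest tendons of a group differed by a chi-square of 30.1 per gene. Labels name each tendon only by number, so p-values measure the spread between these tendons. Floors cover counting error only.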

Additional observations from a re-analysis of the deposited data

Results flagged for a closer look

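Across 40 tests of 8 genes in the 5 groups of 4 or 5 tendons, 1 tendon lay far from the others of its group on the log2 scale, where chance gives about 1 in 20. C3ar1 in 21D 2 mg/kg replicate 3 was at 9.06 CPM, against 16.6 to 20.2 CPM in the other 4 tendons of that group. The same tendon had the highest C3 of its group, at 39.1 CPM, and the lowest C1qa, at 173 CPM. Its macrophage marker sum was also the lowest of the group, at 1895 CPM against 2806 to 5254 CPM.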

How the results depend on the processing

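Counts of called genes held within 1.5 times for 438 alternatives and moved further for 30. Those that held include the dose tests, with 0 members called in every fit. They also include the fall from 6 to 4 members at 7D 0 mg/kg without Control replicate 4. The log2 muscle share does not overlap between control and repaired tendons, nor between the times in the dosed pairs. With it as a covariate, members called fell to 2 in each dosed 7-day group and to 0 between 7 and 21 days in each dosed pair. Under the same covariate the further complement genes fell to 13, 2 and 2 at 7 days (0, 2 and 6 mg/kg) and to 0, 2 and 0 between the times. The shares of all genes called in these covariate fits are not given. C3ar1 reversed there, to -0.78 at 7D 2 mg/kg and -0.76 at 7D 6 mg/kg (adjusted p = 0.624 and 0.626). Fits of only the groups compared called 5 members at 7D 6 mg/kg, 2 between the times in each dosed pair, and 0 further genes between the times with vehicle. Leaving out 1 tendon gave 5 to 8 members at 7D 6 mg/kg (5 without Control replicate 4), 1 to 2 between the times at 2 mg/kg (2 without 7D 2 mg/kg replicate 4), and, of further genes, 13 to 21 at 21D 6 mg/kg (13 without Control replicate 4) and 1 to 5, 5 to 7 and 4 to 10 between the times (0, 2 and 6 mg/kg). There the count moved by over 1.5 times without any of 7D 0 mg/kg replicates 1, 3, 4 and 5, 21D 0 mg/kg replicates 1, 4 and 5, 7D 2 mg/kg replicate 3, 21D 2 mg/kg replicate 1, 7D 6 mg/kg replicates 1, 4 and 5, and 21D 6 mg/kg replicate 2. Causes were not tested. The replicate block gave 6, 6 and 6 members at 7 days and 5, 5 and 4 at 21 days, with only C1qb and C1qc at 7D 6 mg/kg lost. Small control numbers limit every comparison with them.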
